A study of Mus musculus with 74 samples.

Results

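A set of 10 transcription factor genes with known roles in axon growth were followed in injured sensory ganglia and sensory neurons. They were Sox11, Sox4, Smad1, Stat3, Myc, Creb1, Hif1a, Srf, Trp53 and Egr1, taken by name from a list that leaves out the AP-1 and Kruppel-like families, and all 10 were found among the 53379 genes in the count files. RNA was sequenced from whole L4 dorsal root ganglia (DRG) of 4 uninjured female C57BL/6 mice and 4 mice killed 1 day (1d) after spinal cord injury (SCI), all 10 to 12 weeks old. RNA was also sequenced from sorted neurons of female Thy1YFP16 mice 10 to 20 weeks old, in which the Thy1 promoter drives YFP in the neurons that the labels call dorsal column sensory neurons. The sorted set held 6 naive mice and 4 mice in each of 4 injured groups, SCI 1d, SCI 3d, SNI 1d and SNI 3d, where SNI is a crush of the sciatic nerve. SCI was a dorsal hemisection at T9/10, which injured the central branch of these neurons, while SNI injured the peripheral branch. Every sorted mouse gave 3 wells of about 100 cells, which are technical repeats and were summed, so that the mouse was the replicate. The 22 sorted mice came from 2 sets named FACS and FACS2018 in the labels, and the naive group held 4 and 2 mice of these sets and each injured group 2 and 2.

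These factors act at different points of the response of a neuron to axon injury. Sox11 and Sox4 are SoxC factors that drive neuronal genes in developing neurons, Smad1 carries the signal of BMP receptors to the nucleus, and Stat3 does the same for cytokine receptors of the gp130 family. Creb1, Srf and Egr1 link cAMP, calcium and growth factor signals to transcription, Myc promotes ribosome production and growth, Hif1a responds to low oxygen, and Trp53 encodes p53, which responds to cell stress and DNA damage. Axotomy of the peripheral branch is the classic trigger of a growth state in sensory neurons.

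The number of reads on genes ran from 21959030 to 44493319 in whole DRG mice and from 30518187 to 83599972 in sorted mice. In 20 of 66 sorted wells the reads on 10 satellite glia and Schwann cell genes exceeded those on 8 neuronal genes, and these wells are called glia-rich. They were 6 of 18 naive wells, 3 of 12 wells at SNI 1d, 4 of 12 at SNI 3d, 3 of 12 at SCI 1d and 4 of 12 at SCI 3d. Glial genes held 2.05% to 7.55% of the reads of these wells and 0.0571% to 0.698% of those of the others. In 2 mice, FACS2018 mouse 1 at SNI 3d and FACS2018 mouse 1 at SCI 3d, all 3 wells were glia-rich. The SCI 3d mouse also gave 4.61% of its reads on 5 fibroblast genes. The neuronal markers were all detected in every group, macrophage genes summed to at most 0.0571% of reads in any sorted mouse, neutrophil genes to at most 0.000423% and red blood cell genes to at most 0.155%. In whole DRG red blood cell genes held 0.00133% to 0.00208% of reads in uninjured mice and 0.00206% to 0.009% after SCI, and macrophage genes 0.00496% to 0.00704% and 0.00677% to 0.00771%. The part of these cells in the results was not tested.

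On GRCm38 Sox11 lies on the minus strand at chr12:27334264-27342574, Sox4 at chr13:28948919-28953713, Smad1 at chr8:79338395-79399518 and Stat3 at chr11:100885098-100939540, all from GENCODE and all on the minus strand. Sox11 had the largest fold change of the 10 in any comparison, and the 250 bases before its RefSeq start site are shown to set the gene in place (GRCm38.p6, chr12:27342719-27342968, minus strand). Capitals mark 2 GC boxes, read on the other strand, and a CRE-like TGATGTCA.
Sox11: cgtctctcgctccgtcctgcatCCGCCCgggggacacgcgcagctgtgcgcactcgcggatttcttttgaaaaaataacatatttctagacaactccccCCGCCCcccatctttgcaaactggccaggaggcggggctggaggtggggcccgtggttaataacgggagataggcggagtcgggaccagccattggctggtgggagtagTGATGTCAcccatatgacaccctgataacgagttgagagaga

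RefSeq windows of 300 bases were at hand for 8 of the members, and both strands were searched. Myc and Egr1 had no window and were not searched. The AP-1 motif TGANTCA, the CRE TGACGTCA and the STAT motif TTCNNNGAA were in none of the 8, against 7.81%, 1.79% and 8.30% of all 32851 windows. The GC box GGGCGG was in 5 of 8 (Sox11, Smad1, Stat3, Creb1 and Srf) against 35.7% of all windows, the E-box CACGTG was in 2 of 8 (Hif1a and Trp53) against 7.15%, and the CArG box, to which SRF itself binds, was in the Srf window alone against 1.63%. TGATGTCA was searched after the Sox11 window had been read, and 3.62% of all windows held it. These are matches of letters, not sites.

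In whole DRG 1 day after SCI none of the 10 factors passed the test. Each level is given as CPM, the reads on a gene per 1e6 reads, scaled by edgeR's TMM method, and each difference is a log2 fold change with its standard error (SE), tested over all genes by edgeR's quasi-likelihood F-test at a Benjamini-Hochberg adjusted p under 0.1. At this threshold 408 of 17616 genes (2.32%) were called. At an unadjusted p under 0.05 stood 1 member, Sox4, against 14.6% of all genes, and the SCI and uninjured mice did not overlap for that member alone, against 11% of all genes. DESeq2, which called 5.27% of genes, also called Sox4. The median log2 fold change was 0.03 over the members and 0.01 over all genes, and the median SE was 0.125 over the members and 0.123 over all genes.

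Sox4 stood at 36.4, 21.9, 20.5 and 20.2 CPM in the uninjured mice and at 15.2, 15.2, 15.4 and 16.9 CPM after SCI. All SCI mice were below all uninjured mice, but one uninjured mouse stood far above its group. The log2 fold change was -0.65 (SE 0.18, adjusted p = 0.13 by edgeR), and DESeq2 gave an adjusted p of 0.0178. Without uninjured mouse 1 it was -0.41 and passed edgeR's test (adjusted p = 0.0388). An antisense gene, Gm26735, shares 54.6% of the exon bases of Sox4, so that reads there cannot be told apart without strand, and Gm26735 itself had at most 0.0225 CPM in any DRG mouse.

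The same uninjured mouse was high for the SoxC partner Sox11 and for Srf. Sox11 stood at 32.1, 23.4, 21.5 and 23.3 CPM in uninjured mice and at 32.7, 24.9, 24.0 and 25.1 CPM after SCI. Mouse 1 was the highest in both groups, and the groups overlapped, with a log2 fold change of 0.09 (SE 0.14). Srf, which turns on genes of the actin cytoskeleton, stood at 53.9, 33.7, 33.7 and 33.5 CPM in uninjured mice and at 30.5, 30.5, 36.0 and 31.1 CPM after SCI, a log2 fold change of -0.27 (SE 0.15). The groups overlapped for Srf as well. That uninjured library had the lowest share of reads on lines that name no gene, 33.1% against 35.2% to 37.0% in the other 7, and the part of this in the result was not tested.

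The other 7 factors lay close together in whole DRG, as the plot of DRG levels shows. Stat3 was the most abundant, at 411 to 449 CPM in uninjured mice and 427 to 481 CPM after SCI. Smad1 stood at 56.2 to 63.3 and 54.4 to 67.9 CPM, Creb1 at 57.4 to 67.1 and 60.9 to 66.3 CPM, and Hif1a at 114 to 122 and 103 to 117 CPM. Myc, Trp53 and Egr1 were low, at 3.67 to 4.21, 5.82 to 7.67 and 3.70 to 4.35 CPM in uninjured mice. Egr1, an immediate early gene, spread from 2.16 to 7.80 CPM after SCI. The log2 fold changes of these 7 lay between -0.10 for Hif1a and 0.10 for Myc, and none had an unadjusted p under 0.05.

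**Figure D1:**
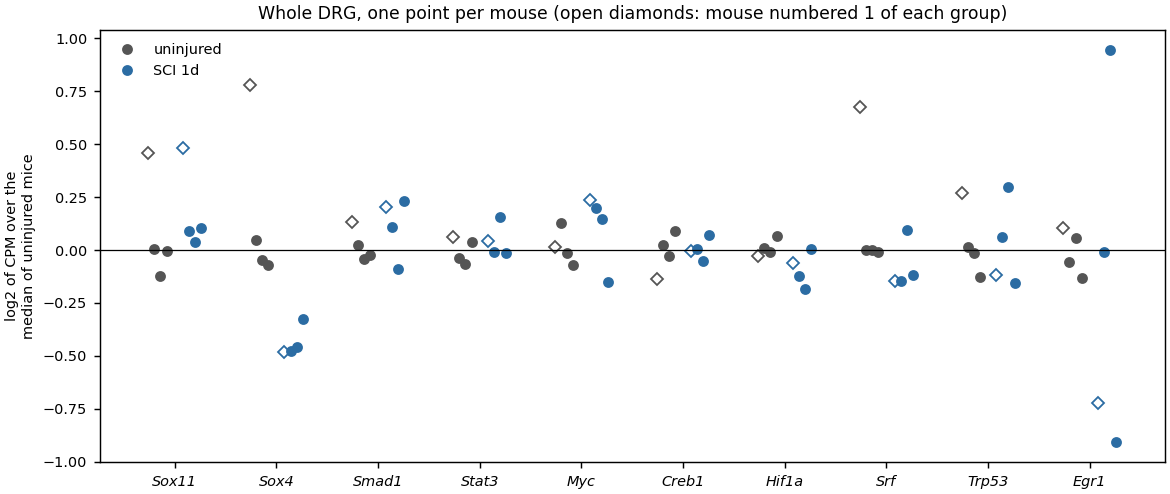
Whole DRG, level of each factor in every mouse as the log2 of its CPM over the median of the 4 uninjured mice, in grey for uninjured mice and blue for SCI 1d, with the mouse numbered 1 of each group as an open diamond. Sox4 after SCI lies below every uninjured mouse, and uninjured mouse 1 stands high for Sox11, Sox4 and Srf.

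Per kilobase of exon the order of the levels in uninjured DRG was Stat3 (45.2 CPM per kb), Hif1a (19.9), Srf (13.4), Smad1 (9.39), Sox4 (5.16), Creb1 (4.56), Sox11 (3.02), Trp53 (1.62), Myc (1.43) and Egr1 (0.901). Srf and Smad1, Sox4 and Creb1, and Trp53 and Myc did not differ beyond their SDs (n = 4), while the other neighbours did. In naive sorted mice, all wells included, Egr1 led at 51.4 CPM per kb with an SD of 63.3 (n = 6), followed by Stat3 (17.6), Trp53 (16.0), Myc (15.9), Hif1a (12.7), Sox11 (9.84), Smad1 (3.71), Creb1 (2.69), Srf (0.966) and Sox4 (0.0815), and no neighbours differed beyond their SDs. With the glia-rich wells left out Stat3 led at 24.95 CPM per kb (SD 8.04, n = 6), followed by Myc (19.8), Egr1 (18.1, SD 15.3), Sox11 (11.9), Hif1a (9.0), Trp53 (7.57), Smad1 (5.55), Srf (1.20), Creb1 (1.09) and Sox4 (0.108). The whole DRG and sorted libraries were prepared in different ways and normalized apart, so that no test was made between them. Sox4, at 20.2 CPM or more in each uninjured DRG, had at most 4.54 CPM in any sorted mouse, and Srf at most 6.93 CPM against 33.5 CPM or more.

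In sorted neurons 1 day after SNI, Sox11 rose 12.4-fold over naive neurons and was the only one of the 10 factors called. The model held 2 RUVr factors, which capture variation that the groups do not explain, and called 122 of 23507 genes (0.519%), 118 of them higher. At an unadjusted p under 0.05 stood Sox11 and Smad1, against 14% of all genes, and these were also the 2 members whose injured mice all exceeded all naive mice, against 1.71% of all genes without overlap. DESeq2 with the same factors called both, with 6.16% of genes. Without the glia-rich wells edgeR called 6.47% of genes and 3 members, Sox11, Smad1 and Creb1. The median log2 fold change was 0.63 over the members and 0.15 over all genes.

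Sox11 had between 4.37 and 269 CPM in naive mice, with a median of 53.6. At SNI 1d it stood at 1034, 694, 1224 and 425 CPM. Every injured mouse was above every naive mouse. The log2 fold change was 3.64 (SE 0.79, adjusted p = 0.0706 by edgeR), with a difference of group means on log2(CPM + 1) of 3.37 within the FACS set and 5.38 within FACS2018. Without the glia-rich wells the log2 fold change was 3.73 and the adjusted p 0.00521. The 22 fits that left out 1 mouse called 15 to 426 genes, against 122 in the main fit. The call of Sox11 was lost in 7 of the 22, with adjusted p-values of 0.103 to 0.171 by edgeR. These were the fits without naive mouse 1, 2, 3 or 6 or SNI 1d mouse 1, 3 or 4. The call was also lost with no RUVr factor (log2 fold change 3.37, adjusted p = 0.452 by edgeR), with 1 factor (3.48, 0.142), with residuals that were not centred (4.64, 0.246), with naive mice of the same day alone (3.79, 0.222) and with the replicate number as a block (3.92, 0.191).

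Smad1 had 16.0 to 39.5 CPM in naive mice, with a median of 21.4, and 74.6, 47.6, 110 and 61.6 CPM at SNI 1d. The groups did not overlap. The log2 fold change was 1.62 (SE 0.43), a fold of 3.07, which missed the threshold in edgeR (adjusted p = 0.134) and passed it in DESeq2 (adjusted p = 0.0114). The difference of group means on log2(CPM + 1) was 1.25 within the FACS set and 2.11 within FACS2018. Without the glia-rich wells the log2 fold change was 1.48 and passed edgeR's test (adjusted p = 0.0137). The groups then overlapped, since 1 naive mouse, that of FACS2018 day 3, stood at 65.6 CPM in place of 20.0 once 2 glia-rich wells were left out.

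The remaining factors overlapped between SNI 1d and naive mice. Stat3 had 163, 203, 275 and 248 CPM against 85.3 to 250.7 CPM in naive mice, with a log2 fold change of 0.41 (SE 0.25). Sox4, near the floor of detection in these neurons, had 4.54, 0.924, 0.334 and 1.26 CPM against 0 to 1.45 CPM, a log2 fold change of 2.23 (SE 1.32). In the mouse at 4.54 CPM, 1 glia-rich well had 28.0 CPM, and without the glia-rich wells that mouse stood at 0.527 CPM and the log2 fold change was 1.05. Myc had 192 CPM in 1 mouse and 29.5 to 39.1 CPM in the other 3, against 8.12 to 92.8 CPM in naive mice. The mouse at 192 CPM was the one high for Sox4, and the same glia-rich well had 870 CPM for Myc. Without the glia-rich wells Myc stood at 36.7 to 82.8 CPM at SNI 1d, against 9.63 to 185 CPM in naive mice. Creb1 (0.48), Hif1a (0.16), Srf (0.79), Trp53 (-0.27) and Egr1 (0.19) had log2 fold changes of about their own SE or less. Trp53 and Egr1 changed sign without the glia-rich wells (0.90 and -0.72), and Hif1a had 0.73, none of them called. For Creb1, the value without the glia-rich wells was 1.86 (adjusted p = 0.0273 by edgeR), where 2 naive mice, those of FACS2018, stood at 6.20 and 0.260 CPM and the other 4 at 18.4 to 24.5 CPM.

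**Figure D2:**
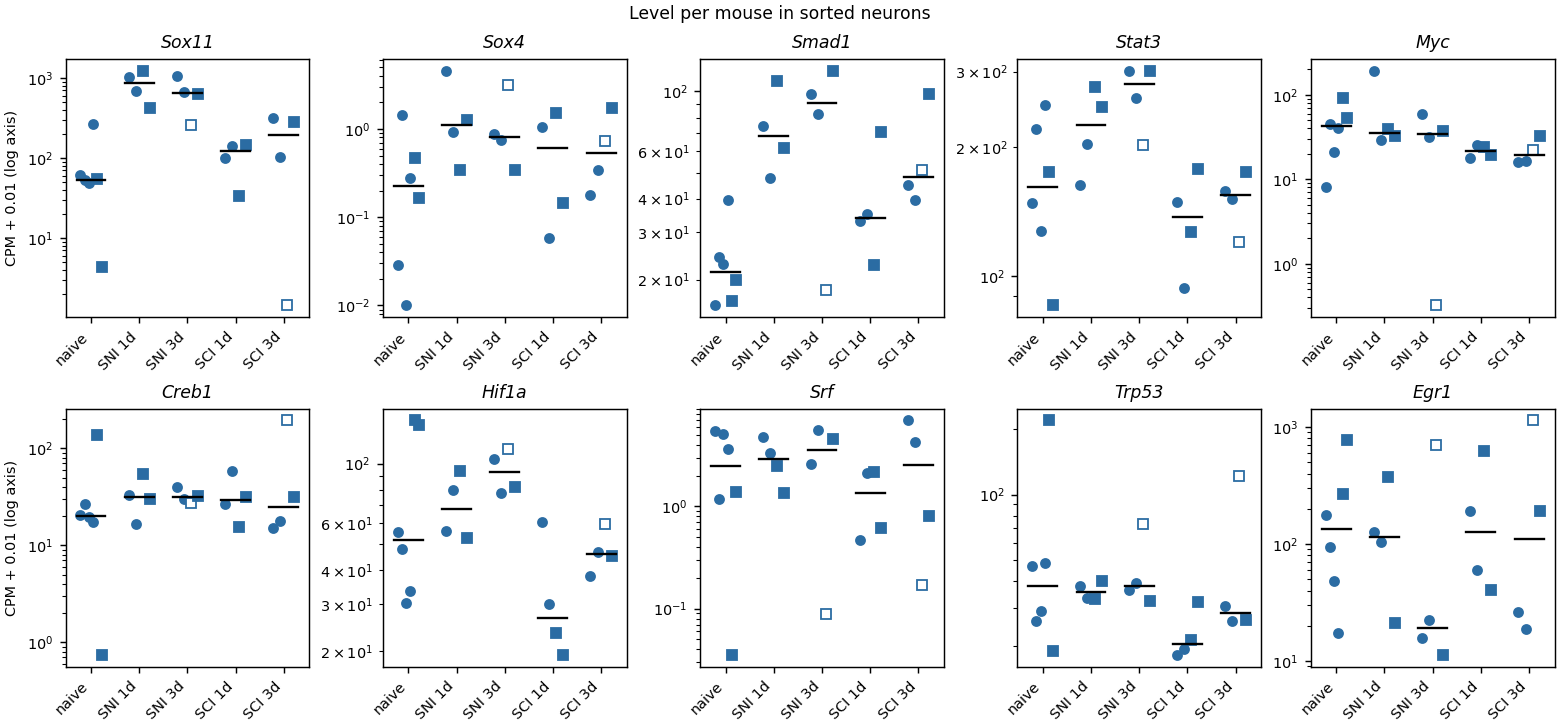
Sorted neurons, level of each factor in every mouse in CPM + 0.01 on a log axis, by group, with circles for the FACS set, squares for FACS2018, open squares for the 2 mice whose wells were all glia-rich and bars at the group median. Sox11 at SNI 1d lies between 425 and 1224 CPM, above every naive mouse.

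At 3 days after SNI, Sox11 and Smad1 held levels near those of day 1, but no member was called. The fit called 104 of 23507 genes (0.442%). At an unadjusted p under 0.05 stood 4 members, Sox11, Smad1 and Stat3 higher and Egr1 lower, against 13.2% of all genes. No member was free of overlap with naive mice, against 1.27% of all genes. Without the glia-rich wells, which left 3 mice at SNI 3d, Sox11, Smad1 and Creb1 were above all naive mice. The share over all genes without overlap was not worked out for those wells. DESeq2 called Sox11, Smad1 and Stat3, with 9.14% of genes, and edgeR without the glia-rich wells called Sox11, Smad1, Creb1 and Hif1a, with 4.99% of genes.

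Sox11 stood at 1046, 659, 258 and 624.6 CPM at SNI 3d. The mouse at 258 CPM, whose 3 wells were all glia-rich, lay just under the highest naive mouse at 269 CPM, and the other 3 were above all naive mice. The log2 fold change was 3.46 (SE 0.83, adjusted p = 0.105 by edgeR). The difference of group means on log2(CPM + 1) was 3.34 within the FACS set and 4.54 within FACS2018. Without the mouse at 258 CPM the log2 fold change was 3.47 (adjusted p = 0.0549 by edgeR). Leaving out naive mouse 4, 5 or 6, or mouse 3 of SCI 1d or SCI 3d, also gave a call, with adjusted p-values of 0.0413 to 0.0986. Over all genes the 22 fits that left out 1 mouse called 9 to 710 genes at SNI 3d, against 104 in the main fit.

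Smad1 stood at 98.1, 82.8, 18.3 and 119 CPM at SNI 3d, and the same all-glia-rich mouse was the low one. The log2 fold change was 1.60 (SE 0.44, adjusted p = 0.145 by edgeR). Without that mouse it was 1.97 (adjusted p = 0.0585), and without naive mouse 5 or 6 it was 1.40 or 1.49 (adjusted p = 0.0947 and 0.0844). Stat3 stood at 301, 260, 202 and 300 CPM, with 3 of 4 mice above all naive mice, and a log2 fold change of 0.70 (SE 0.25, adjusted p = 0.258 by edgeR and 0.0605 by DESeq2). Egr1 went the other way, with 15.6, 22.6 and 11.2 CPM in 3 mice and 698 CPM in the all-glia-rich mouse, against 17.2 to 779 CPM in naive mice. Its log2 fold change was -1.70 (SE 0.69, adjusted p = 0.306 by edgeR).

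After SCI no member was called in sorted neurons on either day. At 1 day 11 of 23507 genes (0.0468%) were called, 2 members had an unadjusted p under 0.05 against 11.2% of all genes, and no member was free of overlap against 0.574% of all genes. The 2 members were Hif1a, at 60.6, 30.1, 23.3 and 19.4 CPM against 30.3 to 145 CPM in naive mice (log2 fold change -0.89, SE 0.40), and Trp53, at 18.1, 19.4, 21.4 and 31.97 CPM against 18.9 to 220 CPM (log2 fold change -0.98, SE 0.38). Within the FACS set and within FACS2018 the differences of group means on log2(CPM + 1) were 0.07 and -2.68 for Hif1a and -0.91 and -1.29 for Trp53. DESeq2 called Trp53 (adjusted p = 0.0773), with 4.61% of genes. Without the glia-rich wells Hif1a had a log2 fold change of -0.33 (SE 0.33), and Trp53 had one of 0.38, of the opposite sign. In that fit edgeR called 0.0354% of genes and no member.

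Sox11 after SCI stood at 99.3, 142, 33.2 and 144 CPM on day 1, all within the naive range of 4.37 to 269 CPM. On day 3 it stood at 311, 103, 1.43 and 279 CPM, with 2 mice above that range and 1 below it. The mouse at 1.43 CPM was the one whose 3 wells were all glia-rich. Over naive the log2 fold changes of Sox11 were 0.48 (SE 0.76) and 0.89 (SE 0.76). Without the glia-rich wells they were 0.60 (SE 0.51) and 1.65 (SE 0.55), neither called (adjusted p = 0.596 and 0.332 by edgeR). Smad1 stood at 33.1, 34.9, 22.7 and 70.6 CPM on day 1, a log2 fold change of 0.71 (SE 0.43). On day 3 it stood at 44.9, 39.6, 51.0 and 97.5 CPM, each above the highest naive mouse at 39.5 CPM, a log2 fold change of 1.37 (SE 0.44, adjusted p = 0.467 by edgeR and 0.0785 by DESeq2). That day 12 of 23507 genes (0.051%) were called by edgeR and 4.73% by DESeq2. Smad1 alone had an unadjusted p under 0.05, against 9.56% of all genes, and alone was free of overlap, against 0.332%. Without the glia-rich wells its log2 fold change was 0.62, the groups overlapped, and edgeR called 0% of genes. Stat3 stayed within the naive range after SCI, at 93.9 to 178 CPM on day 1 and 120 to 175 CPM on day 3.

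**Figure D3:**
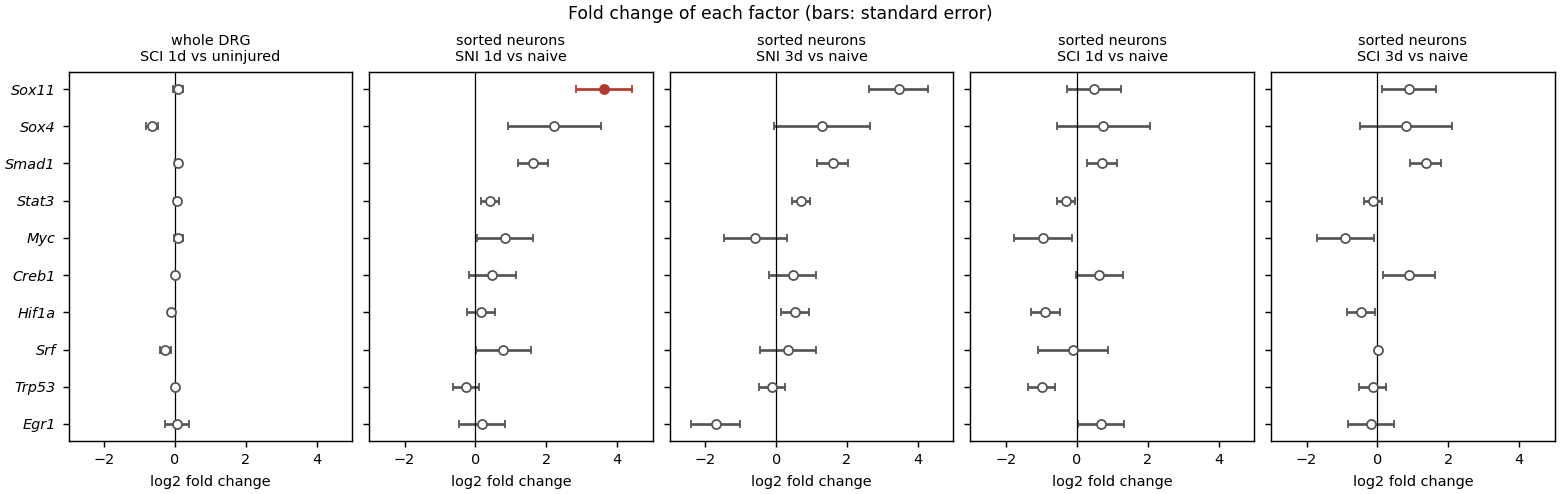
Log2 fold change of each factor (points) with its SE (bars, not drawn where the change is under 0.02) in whole DRG after SCI and in sorted neurons after SNI and SCI, filled red where edgeR's adjusted p is under 0.1. Sox11 at SNI 1d, with a log2 fold change of 3.64, is the only red point.

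The injuries were also set against each other. SNI was a nerve crush and SCI a hemisection of the spinal cord, so that site and kind of injury cannot be told apart in this contrast. edgeR's direct contrast of SNI 1d with SCI 1d called 0 of 23507 genes (0%) and none of the members, with 10.1% of genes and 3 members, Sox11, Stat3 and Hif1a, at an unadjusted p under 0.05. Sox11 was higher after SNI by a log2 fold change of 3.15 (SE 0.91, adjusted p = 0.421 by edgeR), and all 4 SNI mice (425 to 1224 CPM) were above all 4 SCI mice (33.2 to 144 CPM). DESeq2, with 4.67% of genes, called Sox11 alone (adjusted p = 0.0102), and so did edgeR without the glia-rich wells (log2 fold change 3.13, adjusted p = 0.0441), with 0.796% of genes. Sox11, Myc and Trp53 were the 3 members without overlap between SNI 1d and SCI 1d, against 4.36% of all genes. Myc had 29.5 to 192 CPM after SNI against 17.9 to 25.4 CPM after SCI, and Trp53 33.1 to 39.7 against 18.1 to 31.97 CPM. Without the glia-rich wells Trp53 overlapped, with a log2 fold change of 0.51, and Sox11, Myc, Stat3 and Hif1a did not. The share over all genes without overlap was not worked out for those wells. Both kinds of injury were set against the same naive mice above, so that those values are not independent.

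At 3 days the contrast of SNI with SCI again called 0 genes (0%) by edgeR, with 8.15% of genes and the same 3 members, Sox11, Stat3 and Hif1a, at an unadjusted p under 0.05. Stat3, at 202 to 301 CPM after SNI against 120 to 175 CPM after SCI, did not overlap, and its log2 fold change was 0.83 (SE 0.28, adjusted p = 0.608 by edgeR and 0.0327 by DESeq2). Hif1a, at 77.5 to 114 CPM against 38.0 to 59.7 CPM, did not overlap either, with a log2 fold change of 0.98 (SE 0.43). These were the 2 members without overlap, against 1.94% of all genes. Without the glia-rich wells 3 mice were left in each group, and edgeR called 0% of genes. Sox11 and Smad1 then did not overlap either, each with an adjusted p of 0.671 by edgeR. With so few mice such separation carries little weight, and the share over all genes without overlap was again not worked out. Sox11 had a log2 fold change of 2.58 (SE 0.95), which was 1.65 without the glia-rich wells, and DESeq2, with 3.63% of genes, called Sox11 (adjusted p = 0.0764) and Stat3. Stat3 was higher after SNI than after SCI within both sets and on both days, by 0.62 and 0.80 on day 1 and 0.85 and 0.76 on day 3 on log2(CPM + 1).

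Between day 1 and day 3 of the same injury no member moved past the threshold. After SNI edgeR called 0 genes (0%), 9.66% of genes had an unadjusted p under 0.05, and Egr1 was the one member among them, with a log2 fold change from day 1 to day 3 of -1.89 (SE 0.74, adjusted p = 0.496 by edgeR), and of -0.74 without the glia-rich wells. For Sox11 that change was -0.18 (SE 0.90) and for Smad1 -0.02. DESeq2 called 3.75% of genes and no member, and 0 members were free of overlap against 1.99% of genes. After SCI edgeR called 0 genes (0%), 9.67% of genes and no member had an unadjusted p under 0.05, DESeq2 called 4.39% of genes and no member, and no member was free of overlap against 1.53% of genes. Trp53 came nearest, with a log2 fold change of 0.85 (SE 0.41), which was 0.03 without the glia-rich wells.

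The factors differed in how their levels followed the glia-rich wells, as the plot of wells shows. Egr1 had a median of 653 CPM in the 20 glia-rich wells and 23.7 CPM in the other 46. Hif1a was close in both, at 55.8 and 49.1 CPM. The other 8 had the higher median in the other wells: Sox11 at 160 against 1.76 CPM, Stat3 at 211 against 6.56, Smad1 at 50.1 against 3.30, Myc at 32.6 against 0.194, Trp53 at 34.8 against 4.23, Creb1 at 31.0 against 6.95, Srf at 2.53 against 0, and Sox4 at 0.296 against 0.0383. Single glia-rich wells reached 316 CPM for Sox11 and 870 CPM for Myc. Wells of 1 mouse are not independent, so no test was made. Fewer neurons in a well and less RNA per neuron cannot be told apart in such sums.

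**Figure D4:**
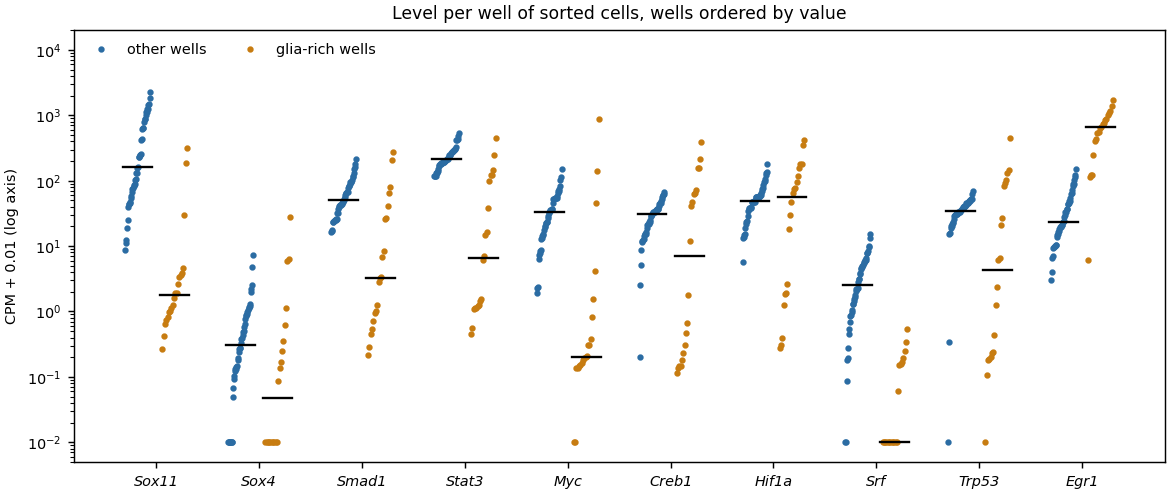
Level of each factor in each sorted well in CPM + 0.01 on a log axis, with the 46 other wells in blue and the 20 glia-rich wells in orange, ordered by value, and bars at the medians. Egr1 is the factor with the far higher median in glia-rich wells, 653 against 23.7 CPM.

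Partners and targets of the factors were read from 10 lists with 132 genes in all. In whole DRG after SCI edgeR called 11 of the 128 tested, 9 higher and 2 lower, against 2.32% of all genes, and DESeq2 called 16 against 5.27%. In sorted neurons edgeR called 3 of 131 at SNI 1d, against 0.519% of all genes, and 5 of 131 at SNI 3d, against 0.442%, all higher. DESeq2 called 16 and 26 there, against 6.16% and 9.14% of all genes, and edgeR without the glia-rich wells 22 and 16 of 130, against 6.47% and 4.99%. No listed gene was called by edgeR on all wells at SCI 1d, SCI 3d or in the 4 direct contrasts. There 5, 11, 17, 10, 11 and 13 of 131 had an unadjusted p under 0.05, against 11.2%, 9.56%, 10.1%, 8.15%, 9.66% and 9.67% of all genes. DESeq2 called 4, 8, 12, 4, 6 and 4 of 131, against 4.61%, 4.73%, 4.67%, 3.63%, 3.75% and 4.39% of all genes. On the wells that were not glia-rich edgeR called 4 of 130 at SNI 1d against SCI 1d, against 0.796% of all genes, and 0 in the other 5. The order is SCI 1d, SCI 3d, SNI against SCI on day 1 and day 3, then day 3 against day 1 after SNI and after SCI. The median log2 fold change over the listed genes was 0.02 in whole DRG, 0.21 at SNI 1d, 0.01 at SNI 3d, -0.01 at SCI 1d and 0.06 at SCI 3d, and over all genes tested it was 0.01, 0.15, -0.01, 0.15 and 0.01.

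The SoxC list holds Dcx and Tubb3, neuronal cytoskeleton genes, with Sox12 and Tead2. In whole DRG, Dcx fell from 5.56 to 6.18 CPM in uninjured mice to 4.05 to 4.17 CPM after SCI, a log2 fold change of -0.50 (adjusted p = 0.0358 by edgeR), and no other gene of the list was called by edgeR on all wells in any comparison. Tubb3 had the smallest p at SNI 3d, with a log2 fold change of 1.12 (SE 0.31, adjusted p = 0.143 by edgeR), and it passed in DESeq2 (adjusted p = 0.0362) and in edgeR without the glia-rich wells (log2 fold change 0.77, adjusted p = 0.0594). The BMP and Smad list had 1 of 19 genes called in whole DRG, Bambi, a decoy receptor for BMP and TGF-beta ligands, which rose from 16.0 to 21.2 CPM to 24.5 to 29.5 CPM (log2 fold change 0.55, adjusted p = 0.0358 by edgeR). In sorted neurons edgeR called none at SNI 1d or SNI 3d. There 3 and 2 of the 19 had an unadjusted p under 0.05, against 14% and 13.2% of all genes. DESeq2 called 2 and 4, against 6.16% and 9.14%. The fit without the glia-rich wells called 3 and 1, against 6.47% and 4.99%. The smallest p of this list at SNI 3d was that of Acvr1, a BMP type I receptor, with a log2 fold change of 2.16 (SE 0.80, adjusted p = 0.266 by edgeR). It passed in DESeq2 (adjusted p = 0.0542) and in edgeR without the glia-rich wells (log2 fold change 2.95, adjusted p = 0.0199).

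In the STAT3 list 1 of 13 genes was called in whole DRG, the oncostatin M receptor Osmr, which rose from 31.5 to 40.4 CPM to 50.8 to 60.8 CPM (log2 fold change 0.61, adjusted p = 0.016 by edgeR). In sorted neurons none was called by edgeR or DESeq2 at SNI 1d or SNI 3d. On both days 0 had an unadjusted p under 0.05, against 14% and 13.2% of all genes. Without the glia-rich wells edgeR called 1 of the 13 at SNI 1d, against 6.47%. The CREB list of 15 had Per1, a clock gene, and Dusp1, a MAP kinase phosphatase, called in whole DRG, with log2 fold changes of 0.88 and 0.49. In sorted neurons edgeR called none of the list at SNI 1d or SNI 3d. There 2 and 2 of the 15 had an unadjusted p under 0.05, against 14% and 13.2% of all genes. DESeq2 called 2 and 3, against 6.16% and 9.14%. Without the glia-rich wells edgeR called 3 and 1, against 6.47% and 4.99%. In the list of EGR and immediate early genes, of which 11 of 13 were tested in whole DRG and all 13 in sorted neurons, Dusp1 in whole DRG was the only call by edgeR on all wells. DESeq2 called 4 of this list in whole DRG, 1 at SNI 1d and 1 at SNI 3d. Over all genes it called 5.27%, 6.16% and 9.14%. Without the glia-rich wells edgeR called 1 of the list at SNI 1d, against 6.47% of all genes. In sorted neurons the CREB target Bdnf, a neurotrophin, had a log2 fold change of 2.20 at SNI 1d (SE 0.60, adjusted p = 0.138 by edgeR), and it passed in DESeq2 (adjusted p = 0.0119) and in edgeR without the glia-rich wells (log2 fold change 3.00, adjusted p = 0.0215). No gene of the Myc list of 16 or the SRF list of 13 was called by edgeR on all wells in any comparison. At SNI 1d 4 of the Myc list had an unadjusted p under 0.05, against 14% of all genes, and DESeq2 called 4, against 6.16%. Nop58, a ribosome assembly gene, had the smallest p (log2 fold change 1.52, SE 0.40, adjusted p = 0.132 by edgeR). When the glia-rich wells were left out, edgeR called 4 of the Myc list at SNI 1d, Nop58 among them (adjusted p = 0.0102). It called 2 at SNI 1d against SCI 1d, again with Nop58 (adjusted p = 0.0478). At SNI 3d it called 1, Odc1, the polyamine synthesis enzyme (log2 fold change 1.77, adjusted p = 0.0391). Over all genes the shares called in these contrasts were 6.47%, 0.796% and 4.99%. At SNI 3d 3 of the SRF list had an unadjusted p under 0.05, DESeq2 called 3, and edgeR without the glia-rich wells called 2. The matching shares of all genes were 13.2%, 9.14% and 4.99%.

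Of the 16 genes of the HIF list, the glucose transporter gene Slc2a1 rose in whole DRG after SCI, from 53.6 to 59.4 CPM to 66.3 to 76.8 CPM (log2 fold change 0.32, adjusted p = 0.0603 by edgeR), and at SNI 3d in sorted neurons (log2 fold change 1.87, SE 0.37, adjusted p = 0.0532 by edgeR), where the groups overlapped. The p53 list had 16 of 17 genes tested. In whole DRG Pmaip1 and Cdkn1a, p53 targets in cell death and cell cycle arrest, rose by log2 fold changes of 0.95 and 0.66, and Trp63, a p53 relative, fell by 0.87 on the log2 scale from 1.02 to 1.44 CPM to 0.486 to 0.720 CPM. In sorted neurons Gadd45a, a stress gene, rose from 7.28 to 86.8 CPM in naive mice to 113 to 455 CPM at SNI 1d (log2 fold change 3.10, adjusted p = 0.0799 by edgeR) and 115 to 425 CPM at SNI 3d (log2 fold change 3.01, adjusted p = 0.0962 by edgeR), with no overlap on either day. Gadd45a was the 1 gene of the list called by edgeR on all wells on each day. Without the glia-rich wells 6 and 5 of 15 were called, against 6.47% and 4.99% of all genes. Trp53 itself had log2 fold changes of -0.27 and -0.11 in these comparisons, and of 0.90 and 0.65 without the glia-rich wells, neither called.

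A reference list of 8 axotomy genes shows what the same fits give for the best known responders. Of the 8, edgeR called 2 at SNI 1d and 3 at SNI 3d, against 0.519% and 0.442% of all genes. DESeq2 called 4 and 5, against 6.16% and 9.14%. In sorted neurons Atf3, a transcription factor of injured neurons, rose from 14.2 to 225 CPM in naive mice to 583 to 1305 CPM at SNI 1d (log2 fold change 3.78, adjusted p = 0.0259 by edgeR). At SNI 3d it stood at 436 to 923 CPM (log2 fold change 3.05, adjusted p = 0.0733 by edgeR). Flrt3, an adhesion protein gene, was also called on both days after SNI and Sprr1a, which promotes axon growth, on day 3. At SNI 3d Flrt3 overlapped, with 96.7 to 1064 CPM against 14.4 to 204 CPM in naive mice. In whole DRG after SCI Atf3 (log2 fold change 2.39) and Jun (0.68) were called, 2 of the 7 tested, against 2.32% of all genes. Sox11 had a log2 fold change of 0.09 there. In sorted neurons after SCI none of the 8 was called by edgeR. There 0 had an unadjusted p under 0.05 on day 1 and 3 on day 3, against 11.2% and 9.56% of all genes. DESeq2 called 1 and 2, against 4.61% and 4.73%.

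The 5 genes most like Sox11 over the 22 sorted mice, by Pearson's r of log2(CPM + 1), were Sh3yl1 (0.90), Slc29a2 (0.89), Slc1a4 (0.89), Lins1 (0.88) and Gars (0.88), and over the 20 mice left without glia-rich wells these values were 0.83, 0.80, 0.76, 0.90 and 0.82. For Smad1 they were A630023A22Rik (0.92), a gene without a symbol that had at most 0.720 CPM in any mouse (0.85), Sdc1 (0.84), Flrt3 (0.84) and Angptl2 (0.82). Sox11 and Stat3 had an r of 0.73, Sox11 and Smad1 of 0.61, and Sox11 and Egr1 of -0.56. The mice share their groups and differ in their glial reads, so these values are descriptions.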

How the data were processed

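RNA was measured in 8 libraries of whole DRG and 66 of sorted neurons. The deposited values are read counts per gene that the authors made with Cutadapt, STAR 2.5.3a and HTSeq 0.6.1 on mm10, without normalization. The last 5 lines of each file name no gene and were left out (33.1% to 37.0% of counts in whole DRG, 42.6% to 66.9% in sorted wells). Tables of the authors' fold changes and p-values were not used, nor were 123 columns of values per sample in them that match no sample here, so whole DRG after SNI was not analysed here.

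Groups came from the sample labels, and wells were summed per mouse. Genes that averaged 10 or more counts (whole DRG) or had 20 or more reads in at least 1 mouse (sorted neurons) were tested with edgeR 4.0.16 in R 4.3.3, with TMM and, in sorted neurons, 2 RUVr factors from the centred deviance residuals of a first fit of all 5 groups. RUVr was written anew and tested on simulated data. The SE is the log2 fold change over the square root of F. The p-values measure the spread between mice. In sorted neurons this is the spread left after the 2 RUVr factors, which were estimated from the same mice. DESeq2 1.42.0 and other scalings, filters, covariates and left-out mice were alternatives. Symbols and coordinates are from GENCODE vM21, which matched 53274 of 53379 identifiers without version. The 10 factors, the lists and the tests were chosen with earlier results of these data known. All 10 factors are named, with up to 4 called genes per list and comparison or else the one with the smallest p.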

Additional observations from a re-analysis of the deposited data

Results flagged for a closer look

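Each factor was checked in each of its 7 groups for a mouse that stands apart, by the gap to its nearest neighbour against the range of the group on log2(CPM + 1) (Dixon's test). Of 70 groups 9 were flagged, and chance flags about 1 in 20. In whole DRG uninjured mouse 1 was high for Sox4 (36.4 CPM against 20.2 to 21.9) and Srf (53.9 CPM against 33.5 to 33.7). SCI mouse 1 was high for Sox11 (32.7 CPM against 24.0 to 25.1), SCI mouse 4 for Sox4 (16.9 CPM against 15.2 to 15.4) and SCI mouse 3 for Srf (36.0 CPM against 30.5 to 31.1). In sorted neurons FACS mouse 1 at SNI 1d was high for Myc (192 CPM against 29.5 to 39.1), and 1 glia-rich well of that mouse had 870 CPM. FACS2018 mouse 1 at SNI 3d, whose wells were all glia-rich, was low for Myc (0.311 CPM against 31.4 to 59.1) and high for Egr1 (698 CPM against 11.2 to 22.6). FACS2018 mouse 1 at SCI 3d, also all glia-rich, was high for Trp53 (122 CPM against 26.1 to 30.4).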

How the results depend on the processing

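The number of factors called rested on the fit. At SNI 1d, where 1 was called, it was 0 at an adjusted p under 0.05, without RUVr factors, with 1 RUVr factor, with residuals not centred and with the naive mice of the same day alone, 2 with DESeq2 or with the set as a covariate, and 3 without the glia-rich wells. At SNI 3d, where 0 were called, it was 3 with DESeq2, 1 with DESeq2's size factors in edgeR, 1 with at least 20 reads in at least 4 mice and 4 without the glia-rich wells. Over all genes the main fits called 0.519% at SNI 1d and 0.442% at SNI 3d. DESeq2 called 6.16% and 9.14% of genes there, and edgeR without the glia-rich wells 6.47% and 4.99%. The shares for the size factors, the stricter filter and the set covariate are not given here. DESeq2 called 1 factor in whole DRG, at SCI 1d, at SCI 3d and at SNI 1d against SCI 1d, and 2 at SNI 3d against SCI 3d. The matching shares of all genes were 5.27%, 4.61%, 4.73%, 4.67% and 3.63%. Leaving out the glia-rich wells gave 1 at SNI 1d against SCI 1d, with 0.796% of all genes. The cause of these differences between fits was not tested. With 1 mouse left out the counts ranged from 0 to 1 in whole DRG, from 0 to 2 at SNI 1d and at SNI 3d, and were 0 in the other comparisons. Over all genes these fits called 104 to 640 genes in whole DRG, against 408 in the main fit. They called 15 to 426 genes at SNI 1d, against 122, and 9 to 710 at SNI 3d, against 104. Sox11 kept its sign in all 12 alternatives and 22 left-out fits at SNI 1d (log2 fold change 3.19 to 4.64) and at SNI 3d (2.77 to 4.20), and so did Smad1 (1.32 to 1.91 and 1.23 to 1.97).

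The replicate numbers were not used as pairs in the main fits. In whole DRG the deviations of same-numbered mice correlated at -0.23, 0.10, -0.11 and 0.34, and only number 4 correlated best with its own number. In sorted neurons such pairs ran from -0.02 to 0.39, and 15 of 20 were over 0.1. Mice of different numbers were not compared there, so whether the numbers pair the sorted mice was not settled. With the number as a replicate block the factors called were 0 in whole DRG, with 127 genes called in place of 408, 0 at SNI 1d, with 6 genes in place of 122 (Sox11 3.92, adjusted p = 0.191 by edgeR), and 0 in the other comparisons.

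The median SE over the factors was 0.125 in whole DRG and 0.544 to 0.766 in the sorted comparisons. A factor that was not called is not shown to be unchanged.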
